A study of Mus musculus with 4 samples.

Results

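The cytosolic ribosomal protein genes were followed in dermal white adipose tissue (dWAT), the fat layer beneath the dermis that surrounds the lower hair follicles (HFs). They were chosen by name: symbols of Rpl or Rps followed by a number and at most 1 letter, with Rplp0, Rplp1, Rplp2 and Rpsa, and without Rps6k genes and names with -ps. The rule found 82 of the 22913 genes, 50 of the large and 32 of the small subunit. The study compared dWAT of old and young C57BL/6 mice in telogen, the resting phase of the hair cycle, and in anagen, the growth phase, which was induced by depilation. The groups are OTD (18 months, telogen), YTD (2 months, telogen), OAD (18 months, anagen) and YAD (2 months, anagen). The dWAT was microdissected from skin, the methods give 20 mice for each group, and each group has 1 library, so no difference below carries an error or a p-value. The age field of the sample labels gives 18 months for YTD and 2 months for OAD, against their titles and the methods, and the ages of the titles and methods were used.

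Ribosomal proteins are the protein part of the ribosome, which joins amino acids in the order that an mRNA sets. The large subunit forms the peptide bond and holds the exit tunnel, and the small subunit reads the mRNA. Their mRNAs are among the most abundant in most cells, and many begin with a run of pyrimidines, the TOP motif, through which the mTOR pathway controls their translation.

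All values are FPKM (fragments per kilobase of the listed feature per 1000000 mapped fragments), a level per length. Differences are between log2(FPKM + 1) of single libraries, and 13143 genes with a mean FPKM of at least 1 over the 4 libraries were compared, 80 members among them. Of the other 2 members, Rpl6l was at 0.0745 to 0.206 FPKM and Rpl10l, a testis paralogue of Rpl10, was listed at 0 in each library. Read counts were not used here and the depth of the libraries is unknown, so no counting interval is given. The mitochondrial genome accounted for a share of all FPKM of 44.7% in YTD, 52.7% in OTD, 14.4% in YAD and 18.3% in OAD.

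The label of the tissue was checked with marker lists. All 15 adipocyte markers were measured and none was at 0, and their summed level was 7050.4 in YTD, 8466 in OTD, 2061 in YAD and 2913 in OAD. The 20 skeletal muscle markers summed to 133070.0 in YTD, 84719.9 in OTD, 15145 in YAD and 19924 in OAD, with none at 0. The 21 hair matrix and shaft markers measured summed to 518 in YTD, 286 in OTD, 25007 in YAD and 31059 in OAD, and the 15 proliferation markers to 62.5 in YTD, 65.1 in OTD, 396 in YAD and 329 in OAD. The 14 epidermal markers measured summed to 139.9 in YTD, 99.1 in OTD, 2365 in YAD and 3103 in OAD, with 1 at 0 in YTD. Muscle, hair and epidermal markers were thus present beside those of fat, and their sums differed more between telogen and anagen than between the ages. Whether these cells had a part in the differences of ribosomal protein genes was not tested. In such bulk RNA, a change in the share of a cell type and a change in RNA per cell cannot be told apart.

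The bases around an annotated start are shown for members on which the results below turn. RefSeq start windows on GRCm38.p6 were matched by symbol for 60 of the 82 members, in 72 windows of 250 bases before to 50 after an annotated start. Each line gives the sense strand from 30 bases before to 20 bases from the start on, and capitals mark the longest run of at least 6 letters that are all C or T and begin with C.
Rplp2: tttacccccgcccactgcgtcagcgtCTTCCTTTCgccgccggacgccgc
Rps6: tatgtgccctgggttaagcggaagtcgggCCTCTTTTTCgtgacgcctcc
Rpl38: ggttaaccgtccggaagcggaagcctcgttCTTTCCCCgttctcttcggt
Rpl13a: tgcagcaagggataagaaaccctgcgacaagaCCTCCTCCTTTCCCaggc
Rps12: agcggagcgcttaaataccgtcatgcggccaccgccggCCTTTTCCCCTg
Rps24: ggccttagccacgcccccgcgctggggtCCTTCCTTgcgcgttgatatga
Rpl41: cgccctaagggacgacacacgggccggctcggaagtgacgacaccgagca
Rpl3l: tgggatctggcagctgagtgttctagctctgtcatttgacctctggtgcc
These lie at chr7:141447621-141447670 (+ strand), chr4:86857348-86857397 (-), chr11:114668550-114668599 (+), chr7:45128726-45128775 (-), chr10:23787190-23787239 (-), chr14:24490648-24490697 (+), chr10:128549149-128549198 (-) and chr17:24727796-24727845 (+). Rplp2, Rps6, Rpl38, Rpl13a, Rps12 and Rps24 hold such a run near the start, while Rpl41 and the muscle paralogue Rpl3l hold none in the bases shown. An annotated start need not be the end of the listed gene. Rpl41 is listed up to 128549305 on the minus strand, so its listed first bases lie outside those shown. The same holds for Rpl13a (listed up to 45136231) and Rps6 (up to 86857412) on the minus strand. It also holds for Rplp2 (listed from 141447370) and Rpl38 (from 114668524) on the plus strand. Rps24 and Rpl3l each have a further window that is not shown.

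Over the member windows, a run of this kind began between 20 bases before and 30 bases after the start, on the sense strand, in 51 of 72 (70.8%), against 35.5% of all 32851 windows. The letters CTTTCC, which can be part of such a run, were found on the sense strand from 50 bases before the start on in 30.6% of the member windows and 4.69% of all. The letters CCGGAAGT, read on both strands of the whole window, were in 16.7% against 3.89%. AAGATGGC, also on both strands of the whole window, was in 9.72% against 2.75%. TATAAA, in the 50 bases before the start on the sense strand, was in 0 of the 72 member windows and 2.63% of all. A match of letters is a description and shows no binding.

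**Figure D1:**
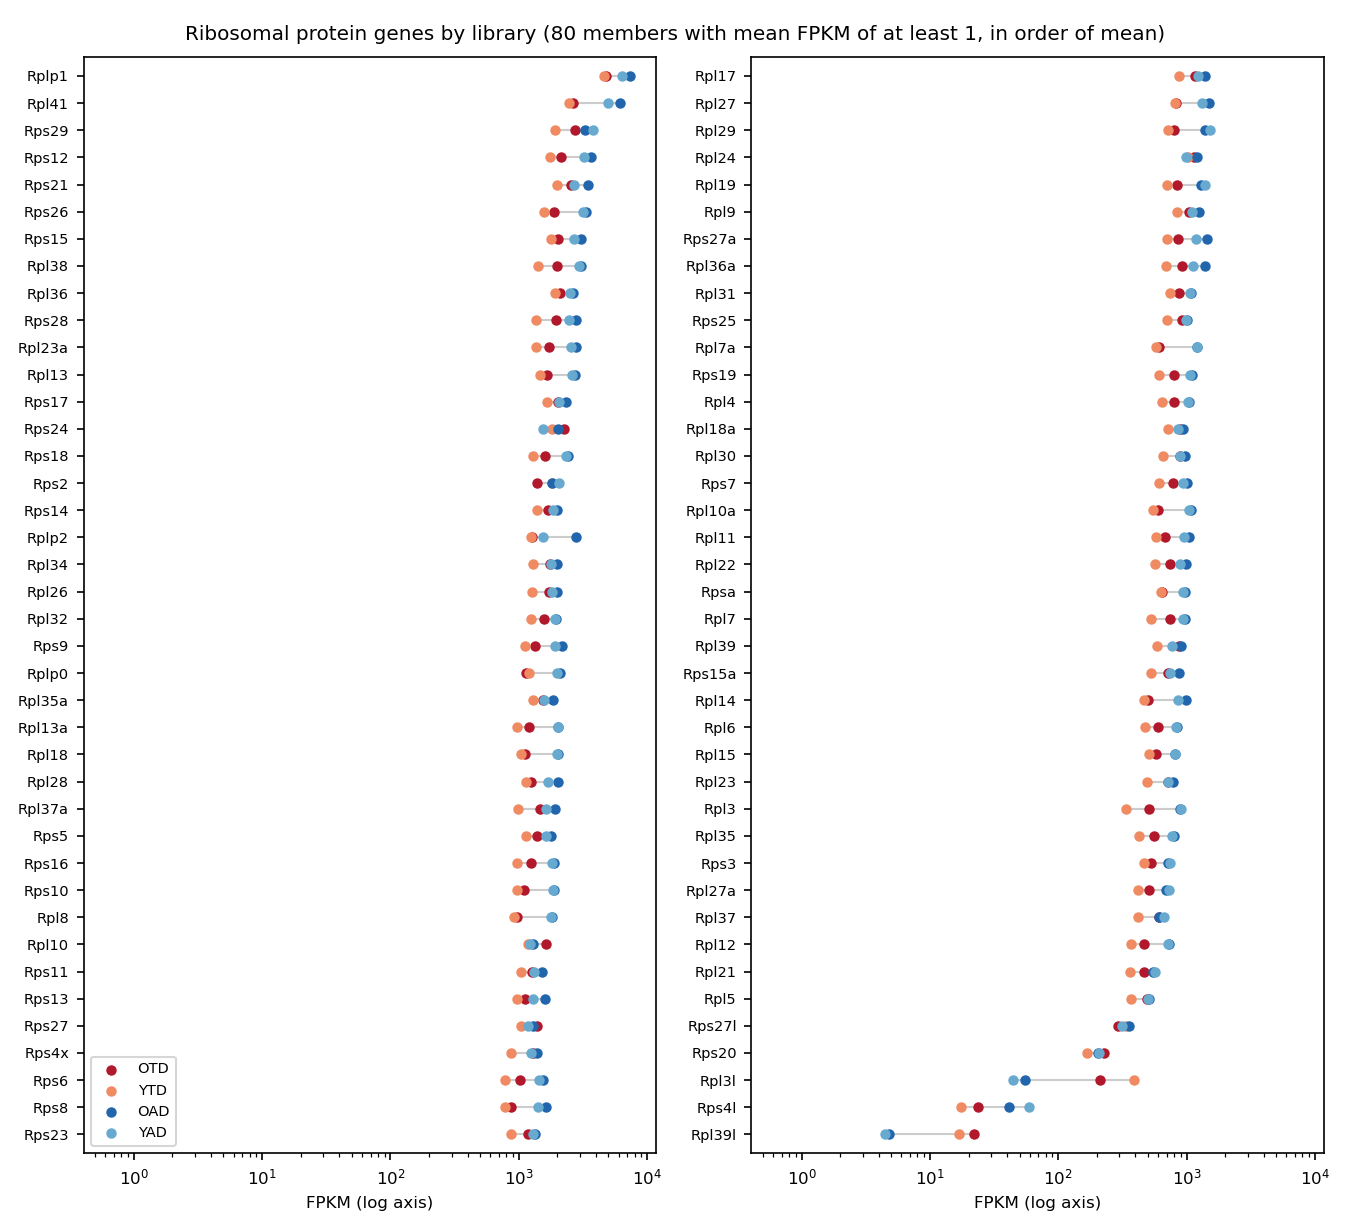
FPKM on a log axis of the 80 members with a mean of at least 1, in order of their mean, with a point for each of the 4 libraries and a grey line over their range. YTD is the lowest library for 73 of the 80 members, and Rpl3l, Rps4l and Rpl39l have the lowest means.

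Ribosomal protein mRNAs were abundant in each library. The sum over the members was 77604 in YTD, 93419 in OTD, 120926 in YAD and 132437 in OAD. As a share of the FPKM of all genes this was 6.23% in YTD, 7.48% in OTD, 17.4% in YAD and 16.3% in OAD. Without genes of the mitochondrial genome, the shares were 11.3% in YTD, 15.8% in OTD, 20.4% in YAD and 19.9% in OAD. By both measures YTD had the lowest share, and the 2 anagen libraries the highest. Of the 76 members not named as paralogues, the median FPKM was 873 in YTD, 1104 in OTD, 1305 in YAD and 1422 in OAD.

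Rplp1, a protein of the stalk that recruits elongation factors, was the highest of these 76 in each library, at 4649 in YTD, 4765 in OTD, 6431 in YAD and 7407 in OAD. Rpl41, the smallest ribosomal protein, came next by mean, at 2479 in YTD, 2664 in OTD, 4960.5 in YAD and 6182 in OAD. Both had higher levels in both anagen libraries than in either telogen library. The small subunit genes Rps29, Rps12 and Rps21 followed by mean. Rps12 was at 1742 in YTD, 2141 in OTD, 3247 in YAD and 3684 in OAD. Rps20 was the lowest of the 76 in each library, at 167 in YTD, 226 in OTD, 209.7 in YAD and 205 in OAD. The levels of the 76 ranked much alike between libraries, with Pearson correlations of log2 levels across genes from 0.91 between OTD and YAD to 0.98 between OAD and YAD. Genes are not replicates, and all these points share their feature lengths.

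In telogen, 76 of the 80 members were higher in OTD than in YTD and 4 were lower, where 42.7% of all genes compared were higher in OTD. The median difference was 0.30 on the log2 scale, which is 1.23-fold, against -0.07 over all genes. In TPM without genes of the mitochondrial genome the members' median was 0.52. The middle 50% of members lay between 0.18 and 0.40, a narrower range (0.23) than that of all genes (0.55). No member differed by 1 or more, where 1.86% of all genes were higher and 2.33% lower by that size. The 757 other genes with a mean FPKM of at least 100 had a median of -0.31, and 28.5% of them were higher in OTD. The muscle marker sums given above also differed, with YTD above OTD. Of the 15 macrophage markers, 12 were higher in OTD than in YTD, with a median of 0.38, and their summed level was 567 in YTD, 901 in OTD, 153 in YAD and 119.5 in OAD. Among the 10 fibroblast markers OTD exceeded YTD for 8 (median 0.21), and they summed to 1145 in YTD, 1582 in OTD, 441 in YAD and 227 in OAD. None of these markers was at 0. Most macrophage and fibroblast markers were thus higher in OTD than in YTD. Their sums were lower in both anagen libraries than in either telogen library. The part of these cells in the telogen difference was not tested.

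Rpl3, a core protein near the peptidyl transferase centre (chromosome 15, 80077796-80091868 on GRCm38), had the largest upward difference among members, at an FPKM of 336 in YTD, 513 in OTD, 906 in YAD and 896 in OAD, a log2 difference of 0.61 between OTD and YTD. Rpl37a, of the large subunit, was at 980.0 in YTD, 1477 in OTD, 1642 in YAD and 1902 in OAD, a difference of 0.59. Rpl39, which lines the exit tunnel, was at 591 in YTD, 874 in OTD, 777 in YAD and 911 in OAD, a difference of 0.56. For each of these 3 genes YTD was the lowest library. Rps6, the phosphorylation target of kinases downstream of mTOR, was at 783 in YTD, 1018 in OTD, 1437 in YAD and 1554 in OAD, a difference of 0.38. All 3 of the libraries other than YTD were above it here too. Rpl5, which with Rpl11 can bind Mdm2, was at 370.3 in YTD, 489 in OTD, 497 in YAD and 509 in OAD, a difference of 0.40. Rpl11 was at 579.6 in YTD, 678 in OTD, 959 in YAD and 1054 in OAD, a difference of 0.23.

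The 4 members lower in OTD were Rpl3l (-0.89), Rps2 (-0.37), Rps27l (-0.21) and Rplp0 (-0.09). Rps2, a protein of the mRNA entry region, was at an FPKM of 1812 in YTD, 1400.0 in OTD, 2073 in YAD and 1833 in OAD, and both of its old libraries were below the young library of the same phase. Rplp0, the base of the stalk and often a reference gene in qPCR, was at 1203 in YTD, 1131 in OTD, 2003 in YAD and 2087 in OAD, and its 2 telogen libraries lay close together. The sign of Rplp0 turned in 2 of the 4 rescalings, both without mitochondrial genome genes, and that of Rps27l in 1 of them, to 0.012. Rpl3l and Rps2 stayed lower in OTD under each of the 4 rescalings.

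**Figure D2:**
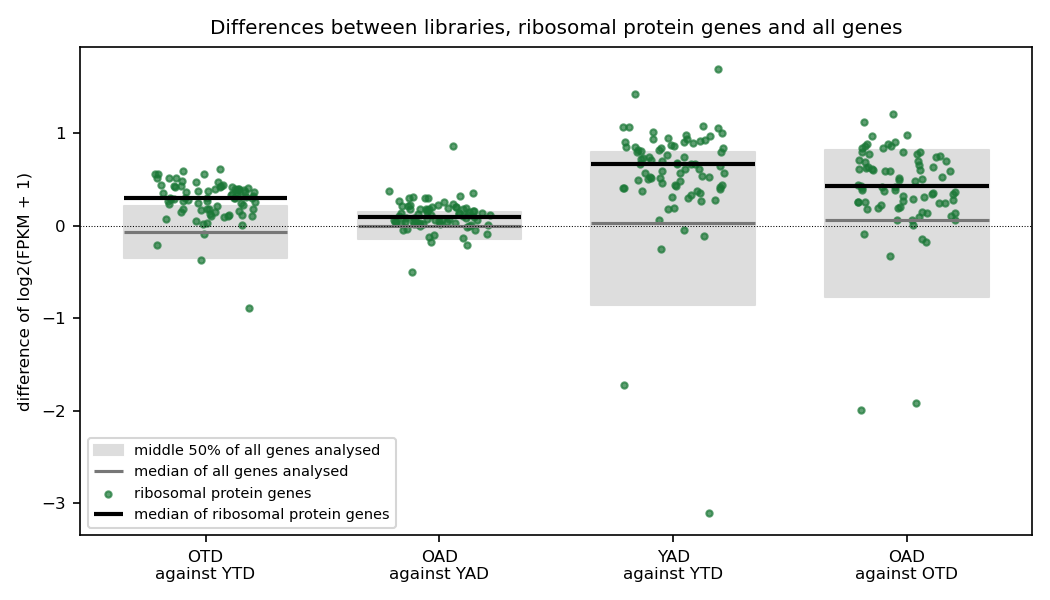
Differences of log2(FPKM + 1) in the 4 comparisons, with a green point for each of the 80 members, a black line for their median, a grey band for the middle 50% and a grey line for the median of all 13143 genes compared. The members cluster above the median of all genes, by 0.37 in OTD against YTD, 0.10 in OAD against YAD, 0.64 in YAD against YTD and 0.37 in OAD against OTD, while Rpl3l and Rpl39l lie far below in both anagen to telogen comparisons.

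In anagen the difference between ages was smaller. As deposited, 68 members were higher in OAD than in YAD and 12 lower, where 50% of all genes were higher in OAD, and the median was 0.10 against 0.00 over all genes. This direction depended on the scaling, since only 10 members were higher in OAD after rescaling to TPM, with a median of -0.12. The median of the members minus that of all genes was 0.08 to 0.10 under each of the 4 rescalings. No member reached a difference of 1, where 0.791% of all genes were higher and 0.434% lower by that size. The 757 other genes with at least 100 FPKM had a median of 0.15, above that of the members, and 77.1% of them were higher in OAD.

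**Figure D3:**
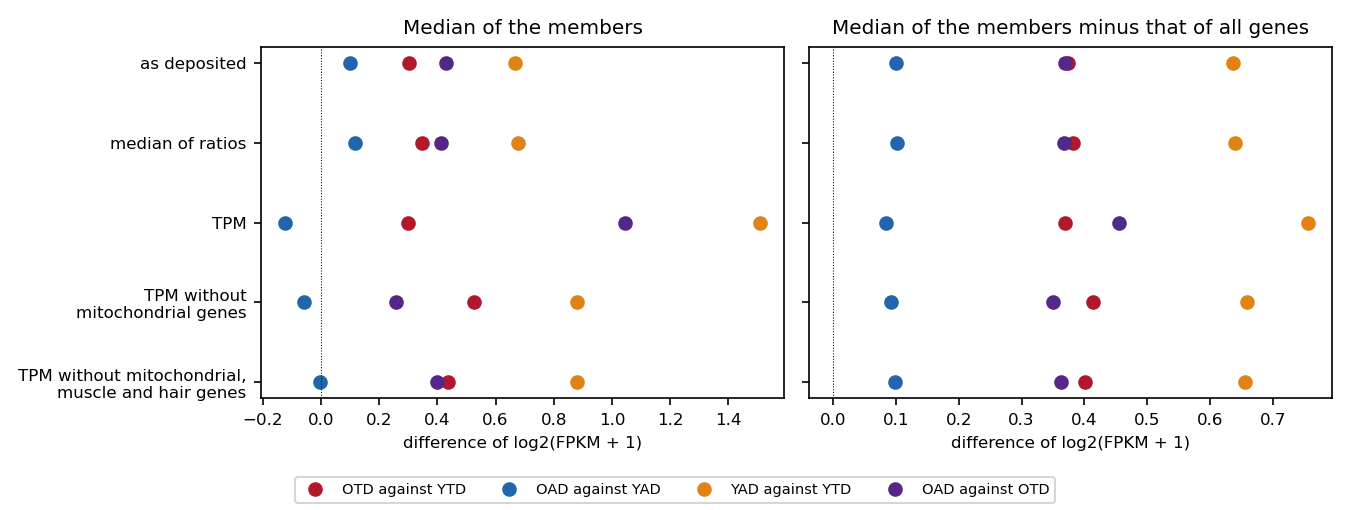
Median difference of the members under the values as deposited and 4 rescalings (left), and the same minus the median of all genes (right), with a colour for each comparison. In OAD against YAD the median falls from 0.10 as deposited to -0.12 in TPM, while it stays 0.08 to 0.10 above that of all genes.

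Rplp2, the partner of Rplp1 in the stalk (chromosome 7, 141447370-141451585), stood apart in this comparison. It was at an FPKM of 1236 in YTD, 1277 in OTD, 1535 in YAD and 2791 in OAD, a difference of 0.86 between OAD and YAD, with OAD far above the other libraries. Rplp1 differed by 0.20 and Rplp0 by 0.06 in the same comparison. Rps24, which has cell type dependent splice forms, was at 1831 in YTD, 2261 in OTD, 1544 in YAD and 2008 in OAD, a difference of 0.38. Rps21, also of the small subunit, was at 1992 in YTD, 2577 in OTD, 2704 in YAD and 3456 in OAD, a difference of 0.35. Rplp2, Rps24 and Rps21 stayed higher in OAD under each of the 4 rescalings. The lowest values were those of Rps4l (-0.50), Rps29 (-0.20) and Rps2 (-0.18), which stayed lower in OAD under each of them.

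Rps29, a zinc-binding protein of the small subunit, was at an FPKM of 1902 in YTD, 2734 in OTD, 3762 in YAD and 3265 in OAD. It was higher in OTD than in YTD and lower in OAD than in YAD. Of the 80 members, 65 were higher in the old library in both phases as deposited, 11 were higher in OTD but lower in OAD, 3 the reverse (Rpl3l, Rps27l and Rplp0), and Rps2 was lower in both. Under the rescaling to TPM, most members were instead lower in OAD than in YAD.

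Between the phases the young libraries differed most. In YAD, 75 members were higher than in YTD and 5 lower, where 50.9% of all genes were higher, with a median of 0.67, or 1.59-fold, against 0.03 over all genes. Of the members, 8 were higher by at least 1 and 2 lower by at least 1, where 20.2% and 21.5% of all genes were. The 5 lower in YAD were Rps24, Rpl24, Rps27l, Rpl3l and Rpl39l, of which the last 2 by at least 1. In OAD, 74 members were higher than in OTD and 6 lower, where 52.2% of all genes were higher, with a median of 0.43 against 0.06. Here 2 members (Rpl41 and Rplp2) were higher and 2 (Rpl3l and Rpl39l) lower by at least 1, where 20.5% and 19.9% of all genes were. These sizes depended on the scaling. After rescaling to TPM the members' median was 1.51 in the young and 1.04 in the old libraries, and 75 and 47 members differed by at least 1 in size, where 51.4% and 46.4% of all genes did. In all, as deposited, 72 members were higher in anagen at both ages, and YTD was the lowest library for 73 members.

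Rpl3 differed by 1.43 between YAD and YTD and by 0.80 between OAD and OTD. Rpl29, a basic protein of the large subunit, was at an FPKM of 718 in YTD, 799 in OTD, 1524 in YAD and 1394 in OAD, a difference of 1.08 in the young and 0.80 in the old. Rpl13a, also known for a role in translational silencing outside the ribosome, was at 963 in YTD, 1201 in OTD, 2022 in YAD and 2029.7 in OAD, with 1.07 and 0.76. Its listed length of 1272 bases was the longest among the members, and a level per length depends on it. Rpl38, needed for the translation of Hox mRNAs in the embryo, was at 1419 in YTD, 1980.0 in OTD, 2962 in YAD and 3052 in OAD, with 1.06 and 0.62. In the old libraries Rpl41 (1.21), Rplp2 (1.13) and Rpl14 (0.98) had the largest upward differences. Rpl14, of the large subunit, was at 468 in YTD, 503 in OTD, 856 in YAD and 994 in OAD.

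A few members of the core did not follow. Rps24 was lower in anagen at both ages, with differences of -0.25 in the young and -0.17 in the old, and Rpl10, which completes the large subunit late in its assembly, was at an FPKM of 1172 in YTD, 1635 in OTD, 1224 in YAD and 1299.8 in OAD with a difference of -0.33 in the old. After rescaling to TPM both signs of Rps24 and that of Rpl10 turned. Among members of special role, Rpsa, also described as a laminin receptor, was at 632 in YTD, 641 in OTD, 942 in YAD and 973 in OAD. Rps19, which is mutated in Diamond-Blackfan anaemia, was at 611 in YTD, 804 in OTD, 1064 in YAD and 1096 in OAD. Rps27a, made as a fusion with ubiquitin, was at 709.6 in YTD, 857 in OTD, 1194 in YAD and 1439 in OAD, and Rpl22 was at 565 in YTD, 741 in OTD, 897 in YAD and 986 in OAD. Rps3, of the mRNA entry region, was at 467 in YTD, 531 in OTD, 742 in YAD and 717 in OAD. Each of these 5 had both anagen libraries above both telogen libraries.

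The medians of both subunits lay close together. The median differences of the 48 large subunit genes compared were 0.31 in telogen, 0.08 in anagen, 0.68 between the young and 0.45 between the old libraries, and those of the 32 small subunit genes were 0.30, 0.12, 0.59 and 0.43. The ratio of the summed FPKM of large to small subunit genes was 1.30 in YTD, 1.26 in OTD, 1.35 in YAD and 1.37 in OAD. The ratio within a library does not depend on the scaling between libraries.

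Paralogues differed in their order of libraries. Rpl3l, which replaces Rpl3 in ribosomes of striated muscle (chromosome 17, 24727820-24736143), was at an FPKM of 389 in YTD, 209.9 in OTD, 44.3 in YAD and 54.7 in OAD. As a percent of Rpl3 this was 116% in YTD, 40.9% in OTD, 4.88% in YAD and 6.10% in OAD. Ckm, muscle creatine kinase, was at 12413 in YTD, 7920.4 in OTD, 1400.3 in YAD and 1988 in OAD. The order of the libraries was the same for Rpl3l and Ckm. YTD exceeded OTD for each of the 20 muscle markers, and each had a lower level in anagen at both ages. Between the anagen libraries the list was split, with 14 higher in OAD, as Rpl3l was, and 6 lower. The part of muscle cells in the levels of Rpl3l was not tested. The start of Rpl3l lies 5891 bases from the end of Rps2. Rpl39l, a testis paralogue of Rpl39, was at 17.0 in YTD, 22.2 in OTD, 4.45 in YAD and 4.81 in OAD, and both anagen libraries were below both telogen libraries.

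Rps4l, a paralogue of Rps4x, was at an FPKM of 17.6 in YTD, 23.5 in OTD, 59.1 in YAD and 41.7 in OAD, or as a percent of Rps4x 2.01% in YTD, 1.82% in OTD, 4.72% in YAD and 3.01% in OAD, with the highest value in YAD. Rps4l overlaps Tmtc1 on the opposite strand, and whether strand was used in counting is not given in the sources used here. Rps27l, a p53 target, was at 339.7 in YTD, 294 in OTD, 315 in YAD and 358 in OAD. Rps27 itself was at 1039.8 in YTD, 1378 in OTD, 1178 in YAD and 1293 in OAD. Rps27rt, a retrotransposed copy of Rps27 that the name rule leaves out, was at 2214 in YTD, 3063 in OTD, 2898 in YAD and 3309 in OAD, above Rps27 in each library. Reads of near-identical copies may be split or shared between them, so the levels of Rps27 and Rps27rt are uncertain. The 20 genes with -ps in the name, which are not members, together summed to an FPKM of 206 in YTD, 272 in OTD, 349.5 in YAD and 564 in OAD.

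**Figure D4:**
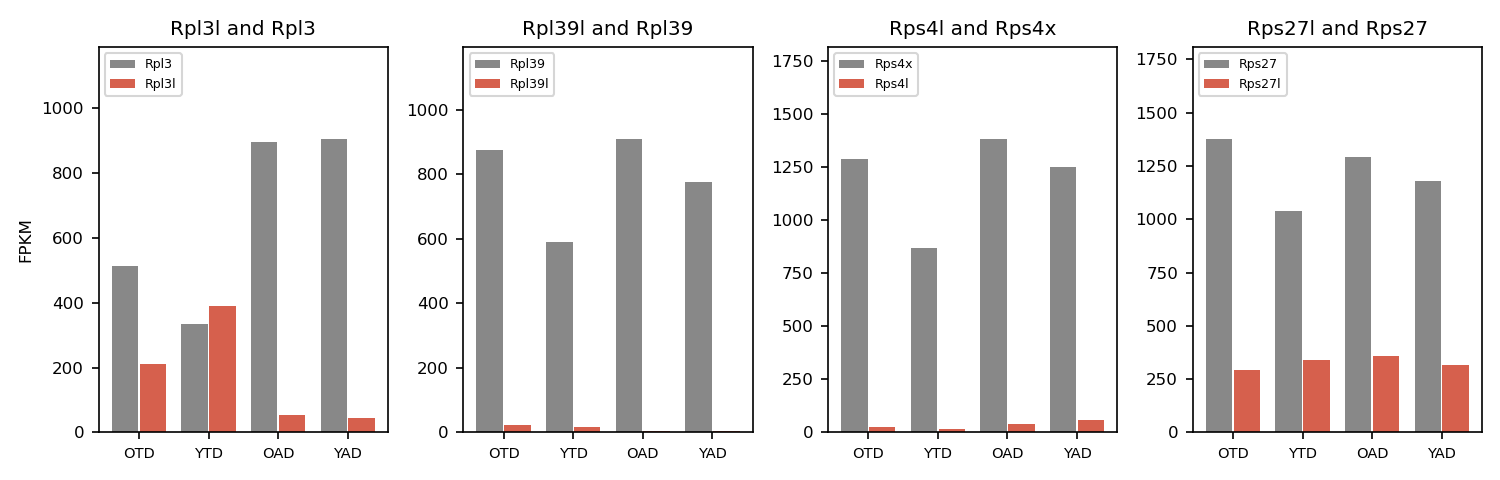
FPKM of 4 paralogues (red bars) and their parent genes (grey bars) in the 4 libraries, on linear axes from 0, with no error bars since each group has 1 library. Rpl3l exceeds Rpl3 in YTD alone, and the other paralogues stay below their parents in each library.

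Genes with a function near that of the members were set beside them. Fau, a ubiquitin-like fusion with a small subunit protein that the name rule leaves out, was at an FPKM of 1219 in YTD, 1494 in OTD, 1922 in YAD and 2208 in OAD. Rps3a1, also left out by the rule, was at 833 in YTD, 1102 in OTD, 1252 in YAD and 1539 in OAD. YTD was the lowest library for both genes. Of 4 other ribosomal protein paralogues left out by the rule, 2 were higher and 2 lower in OTD than in YTD, with a median of 0.02. The 2 lower in OTD were Rpl36al, at 564 in YTD and 527 in OTD, and Rpl7l1, at 25.1 in YTD and 23.1 in OTD. All 4 were higher in anagen at both ages. Of 18 genes with TOP mRNAs that are not members, Fau and Rack1 among them, 16 were higher in OTD than in YTD. Their median was 0.18, and 42.7% of all genes were higher in OTD. Between the phases 13 were higher in anagen and 5 lower at each age, as deposited, where 50.9% and 52.2% of all genes were higher. Tpt1 was among the 5 at both ages, at 2351 in YTD, 2530 in OTD, 1651 in YAD and 2029 in OAD. Eef1a1, the elongation factor that brings aminoacyl-tRNA, was at 1284 in YTD, 2193 in OTD, 2886 in YAD and 2891 in OAD. Its difference was 0.77 in telogen, the largest of the 18, and 1.17 between the young libraries.

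Of the initiation factors, 12 of 30 were higher in OTD than in YTD, where 42.7% of all genes were. Their median was -0.12, and its sign turned in 2 of the 4 rescalings. Between YAD and YTD, 21 of the 30 were higher, with a median of 0.37, and between OAD and OTD 22, with 0.79. Of all genes, 50.9% and 52.2% were higher. Pabpc1, the poly(A)-binding protein, was at an FPKM of 105 in YTD, 123 in OTD, 328 in YAD and 368 in OAD. Its differences of 1.63 in the young and 1.57 in the old were the largest of the 30. Eif1, whose mean was higher, went the other way as deposited, at 608 in YTD, 570 in OTD, 293 in YAD and 381 in OAD. Of 7 elongation factors, 5 were higher in anagen and 2 lower at each age, as deposited, which for so few genes is not far from those shares.

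Ribosome biogenesis genes, which make and assemble ribosomal RNA, were higher in anagen in 37 of 40 in the young and 38 of 40 in the old libraries, where 50.9% and 52.2% of all genes were. Their medians were 0.86 and 0.88, and 16 and 15 of them were higher by at least 1, where 20.2% and 20.5% of all genes were. Fbl, the methyltransferase fibrillarin, was at an FPKM of 26.3 in YTD, 26.3 in OTD, 119.8 in YAD and 111 in OAD, and Npm1, nucleophosmin, at 108 in YTD, 156 in OTD, 313 in YAD and 310.1 in OAD. In telogen their median was -0.03 between the ages, unlike that of the members, and its sign turned in 3 of the 4 rescalings.

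Mitochondrial ribosomal proteins went the other way in telogen: 73 of the 76 compared were lower in OTD than in YTD and 3 higher. Of all genes compared, 42.7% were higher in OTD. The median of the list was -0.39 and stayed below 0 under each of the 4 rescalings. Proteasome subunits had 29 of 31 lower in OTD, with a median of -0.28, also below 0 under each of them. A list of 14 genes compared that act on ribosomal protein synthesis has mTOR pathway genes and TOP-binding proteins among them. Of the 14, 10 were lower in OTD and 4 higher, which for so few genes is not far from the share over all genes. Their median was -0.18, and its sign turned in 1 of the 4 rescalings. Gapdh, a common reference gene, was at 7671 in YTD, 4948 in OTD, 1196 in YAD and 1414 in OAD. Its level was lower in both anagen libraries, where that of Rplp0 was higher. Of 14 reference genes that are not members, Gapdh among them, 8 were higher in anagen and 6 lower at each age, as deposited. Of all genes, 50.9% in the young and 52.2% in the old libraries were higher.

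**Figure D5:**
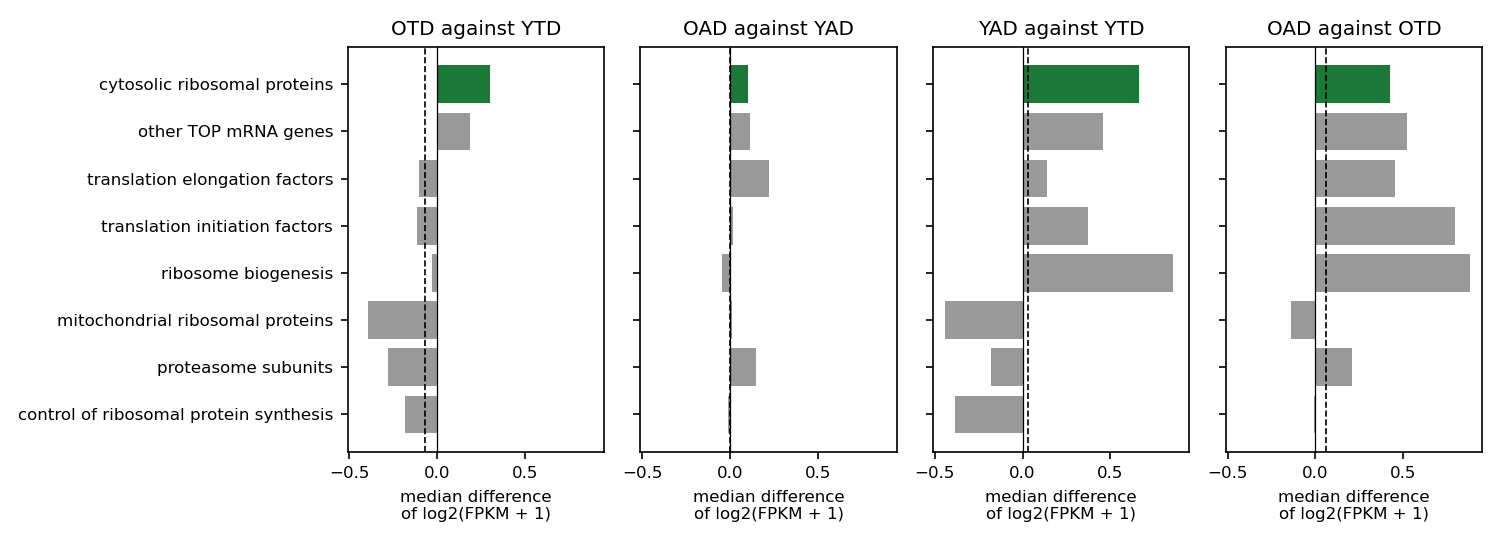
Median difference of log2(FPKM + 1) of the ribosomal protein genes (green) and of 7 lists of related genes (grey), in the 4 comparisons on the same axis, with a dashed line at the median of all genes compared. In OTD against YTD the members have the highest median (0.30) and mitochondrial ribosomal proteins the lowest (-0.39), and in both anagen to telogen comparisons ribosome biogenesis has the highest. In OAD against YAD the members' direction turns after rescaling to TPM. The lists overlap, since the TOP list also holds elongation factors (such as Eef1a1), initiation factors (such as Pabpc1) and Npm1 of ribosome biogenesis.

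The length of the features bears on the levels. The listed lengths of the members ran from 141 to 1272 bases, with 81 of 82 multiples of 3, which is what a coding length gives. Members of at least 400 bases (54) had medians of 0.29 in telogen, 0.08 in anagen, 0.69 between the young and 0.50 between the old libraries, and the 26 shorter ones 0.39, 0.16, 0.50 and 0.33. The shorter members thus had higher medians between ages and lower ones between phases, a difference that was not tested. Of the members, 14 overlapped another listed gene, 12 of them on the opposite strand.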

How the data were processed

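Total RNA of microdissected dWAT was sequenced by the authors on an Illumina HiSeq instrument, with 1 library for each group. The submitters' processing notes name bcl2fastq, TopHat2 and GRCm38, and the counting tool and annotation are not given in the sources used here. The authors deposited FPKM for each gene, with its position and listed length, and these values were used as deposited. The members and gene lists were chosen with earlier results of these data known, and 1 gene of the lists is not reported here.

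Differences were taken of log2(FPKM + 1), which understates those of low genes, for genes with a mean FPKM of at least 1. With 1 library in each group no test can be made, and each difference is between single libraries, whose spread among animals is unknown. Identifiers were matched to symbols with the reference tables for 21750 genes, and all 82 members overlapped their GENCODE M21 gene on the same strand. Library depth was sought in the steps of low FPKM values over 9 settings of length class and smoothing. It could not be recovered, since the estimates ran from 8000000 fragments, the end of the range searched, to 9610000 in OTD and 24600000 in YAD. So no depth, counting interval or floor is given.

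The members named were the 5 highest and the 5 lowest by mean FPKM, the 3 highest and 3 lowest differences in each comparison, 13 of special role, and 4 paralogues beside their parents, with up to 4 genes of each list by mean FPKM. Rps20, Rps3a1, Rps4x and Rpl24 were added after their values were seen. The steps were tested on simulated data. The alternatives were a pseudocount of 0.1, genes above 0 in at least 1 library in place of the filter on the mean, 4 rescalings (by the median of ratios, to TPM, to TPM without mitochondrial genome genes, and to TPM also without muscle marker, hair and keratin genes), members without paralogues, members of at least 400 bases and a difference of 0.5. Leaving out 6 paralogues, the other genes with at least 100 FPKM, and the median minus that of all genes were chosen after seeing the data. Python 3.11.15, numpy 2.4.6, pandas 2.3.3, scipy 1.17.1 and matplotlib 3.10.9 were used.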

Additional observations from a re-analysis of the deposited data

Results flagged for a closer look

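The difference between old and young libraries had opposite signs in telogen and anagen, by at least 0.2 on the log2 scale in each, for 3 named members. These were Rpl3l (-0.89 for OTD against YTD and 0.30 for OAD against YAD), Rps29 (0.52 and -0.20) and Rps4l (0.40 and -0.50). Each sign was the same under the 4 rescalings. The size in OAD against YAD fell below 0.2 under at least 1 of them for Rpl3l (to 0.071) and Rps29 (to -0.187). The difference between the phases was not tested, since each group has 1 library.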

How the results depend on the processing

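No paired analysis was possible because each group has 1 library, and no library could be left out. The OAD against YAD direction depended on the scaling: the median was -0.12 with 10 members higher in TPM, -0.057 with 27 in TPM without mitochondrial genome genes, and -0.0024 with 39 when muscle and hair genes were left out too. TPM shifted the median of all genes by -0.21 in OAD against YAD, 0.72 in YAD against YTD and 0.53 in OAD against OTD. The members' median became 1.51 in YAD against YTD and 1.04 in OAD against OTD, and 75 and 47 members reached 1 in size, against 10 and 4 as deposited. In TPM without mitochondrial genome genes the medians were 0.52 for OTD against YTD and 0.26 for OAD against OTD, and 31 members reached 1 for YAD against YTD, as many as without muscle and hair genes too. The share of all genes past 1 under those rescalings is not given here. With a difference of 0.5 in place of 1, 9 members were counted in OTD against YTD and 1 in OAD against YAD. In YAD against YTD 56 were counted, and in OAD against OTD 38. The share of all genes past 0.5 is not given either. Their quartiles lay past 0.5 between the phases, at -0.85 and 0.80 in the young and -0.77 and 0.82 in the old libraries. The counts at 0.5 are thus not read as particular to the members. Leaving out 4 or 6 paralogues left 2 members past 1 in OAD against OTD. Among members of at least 400 bases, which are fewer, 45 were higher in OAD than in YAD, and 6 (YAD against YTD) and 1 (OAD against OTD) reached 1, and their share of all FPKM was 3.76% in YTD, 4.45% in OTD, 10.5% in YAD and 9.53% in OAD. Without mitochondrial genome genes in the sum, the share of all members was 15.8% in OTD and 11.3% in YTD. The other 127 values of the comparisons kept their direction and stayed within 1.5 times. Depth is unknown, so how far counting limits low paralogues such as Rpl39l cannot be given.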
